A study of Mus musculus with 6 samples.

Results

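The genes described here are 48 interferon-stimulated effector genes of human THP-1 macrophages, the proteins of which act against viruses, bacteria or infected cells after interferon has been sensed. They were chosen by name from the deposited gene table, with the OAS, IFIT and ISG15-conjugation genes left out, and all 48 were found among its 20036 genes. THP-1 is a human acute monocytic leukaemia line that the phorbol ester PMA turns into adherent, macrophage-like cells. They were kept below the membrane of a Transwell insert, which lets soluble factors pass between 2 compartments, and received PMA at 100 ng/ml for 48 h. In the melittin group (3 libraries), tumour cells were then added above that membrane, and the co-culture ran for 48 h with 3 µg/ml of melittin, a membrane-lysing peptide from bee venom. The control group, named NC in the labels (3 libraries), is not described further there: the labels do not say whether NC wells held tumour cells, which tumour line was used, or what vehicle was given, so an effect of co-culture and one of melittin cannot be told apart.

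Type I interferons bind the receptor IFNAR1/IFNAR2, whose kinases JAK1 and TYK2 phosphorylate STAT proteins; these join IRF9 and switch on genes that carry interferon-response elements. Interferon gamma acts through its own receptor and is a strong inducer of the guanylate-binding proteins. Many of the induced genes also have a basal level that low, tonic interferon signalling keeps up in macrophages. Their products work at different points: at membranes where viruses enter or bud, on viral nucleic acids and translation, in the nucleus, and in the ADP-ribosylation and ubiquitin systems.

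The libraries held 16001423 to 19597781 counts, and 14195 to 14440 genes had at least 1 count. All 20036 identifiers were human although the organism label reads mouse. Of the 13 macrophage and monocyte markers 12 passed the filter on low counts, and SPI1, AIF1 and CD33 were not called different. Of the 12 tested markers 6 fell, among them CYBB, CD163 and CSF1R, and 3 rose (10 and 1 with library totals alone). Those that rose were ITGAM, TYROBP and FCER1G, by 1.31, 0.23 and 0.096 on the log2 scale. Over all tested genes 38.3% fell and 38.1% rose. The 13 markers summed to 1375 to 1403 CPM in melittin libraries and 2184 to 2189 CPM in NC libraries. CSF1R alone averaged 235.1 CPM with melittin and 722.2 CPM in NC. CD68 had 1 count over the melittin libraries and 0 over the NC libraries. In such bulk samples fewer cells of a type and less RNA per cell cannot be told apart, and the part of the marker shift in the values that follow was not tested. Of 13 epithelial and prostate markers, EPCAM, KRT5, KRT18, KRT19, KLK2 and TMPRSS2 were at 0 in every library; the levels of the other genes of that list are not reported here. Lymphocyte markers summed to at most 0.871 CPM and fibroblast markers to 26.0 to 28.7 CPM with melittin and 20.9 to 21.9 CPM in NC. Most of the fibroblast sum was 1 gene, COL1A1, with means of 24.7 CPM with melittin and 18.7 CPM in NC. COL1A1 was called higher, but not with library totals alone. COL1A2 was at 0 in every library, COL3A1 had 0 counts over the melittin libraries and 8 over the NC libraries, and PDGFRB was not called.

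Most of the effector genes were lower with melittin, and the extent differed widely between them. Of the 48 genes, 33 fell and 6 rose by edgeR's quasi-likelihood test at a Benjamini-Hochberg adjusted p of 0.05, and 9 were not called. The share called in either direction (81.2%) was close to that of all 12029 tested genes (76.4%), but 68.8% of the effector genes fell and 12.5% rose, where 38.3% of all tested genes fell and 38.1% rose. A fall of at least 2-fold was called for 21 of the 48 (43.8%, against 9.96% of all genes), a fall of at least 4-fold for 9 (18.8%, against 2.15%), and a rise of at least 2-fold for 1, GBP5 (2.08%, against 9.53%). The median log2 fold change of the 48 was −0.85, that of all tested genes −0.0069. The 48 were chosen with earlier results of these data known, so these contrasts with all genes are descriptions. Together they took 0.235 to 0.239% of the counts in melittin libraries and 0.423 to 0.428% in NC libraries. The 3 melittin and 3 NC values did not overlap in 40 of the 48 genes (83.3%, against 77.4% of all genes), 33 of them lower and 7 higher with melittin. With scaling by library totals alone, the median over all genes was −0.24, 40 of the 48 genes were lower and 6 higher, and 33.6% of all called genes were higher, against 49.8% with TMM.

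**Figure D1:**
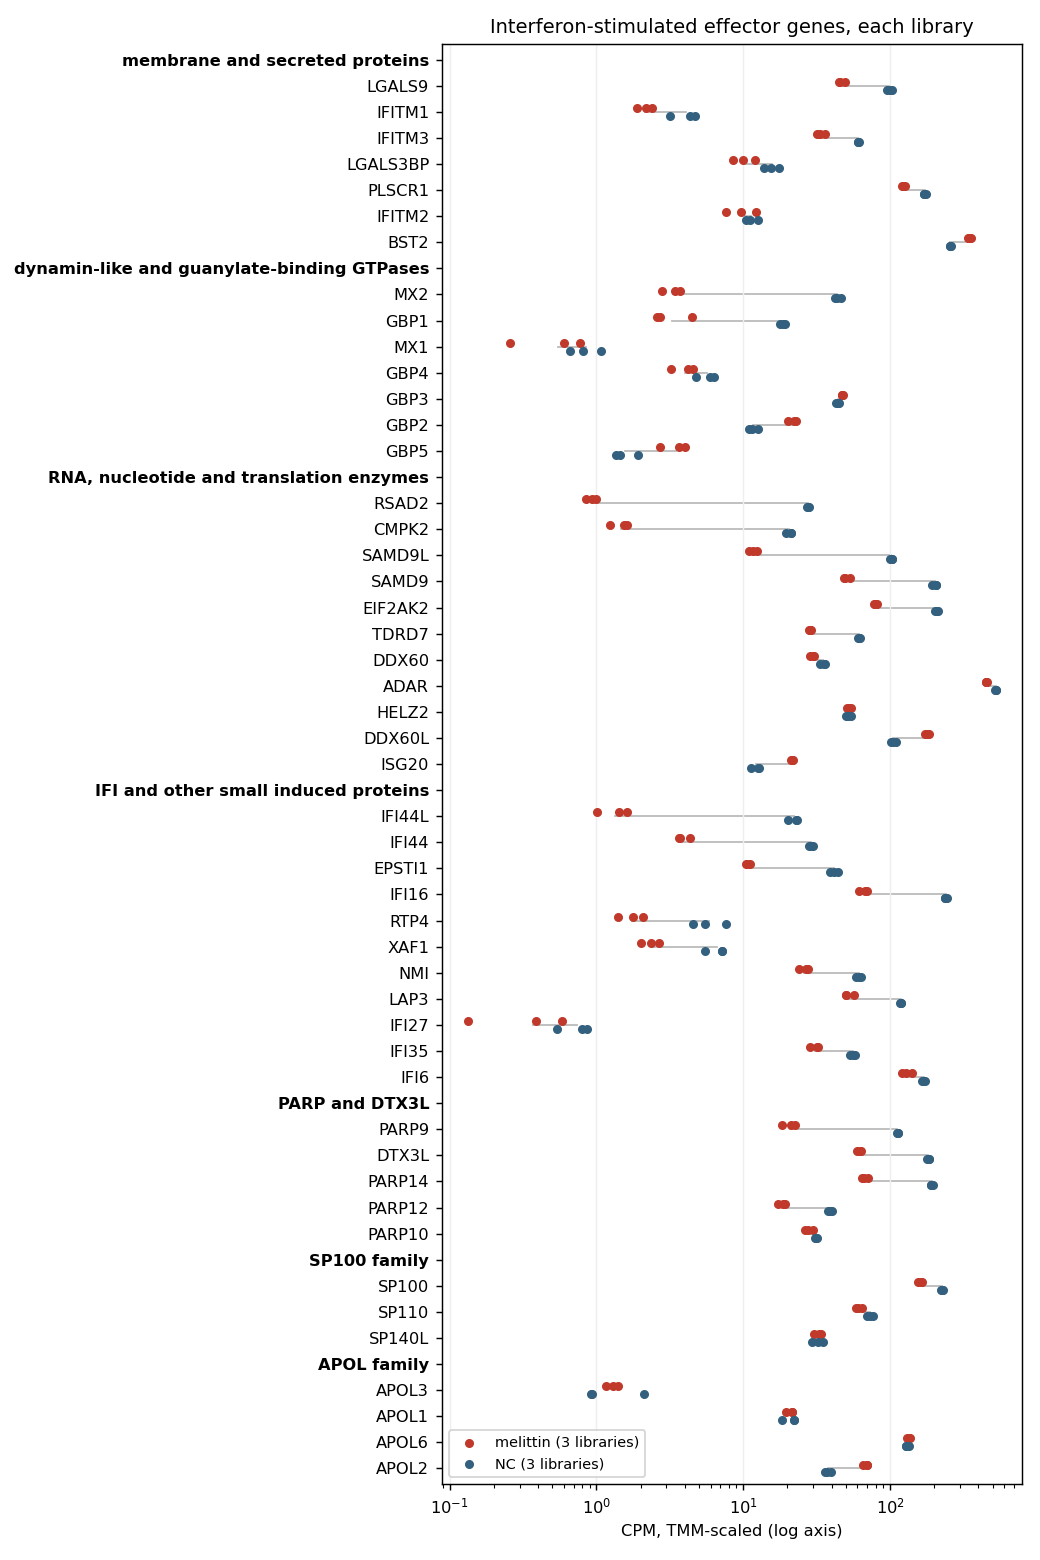
Level of each of the 48 genes in each library, in CPM scaled with TMM factors, on a log axis; red points are the 3 melittin and blue points the 3 NC libraries, grey lines join the group means, and genes are grouped by role and ordered by fold change. RSAD2, at 0.845 to 1.002 CPM with melittin and 27.4 to 28.2 CPM in NC, shows the widest gap. All melittin values of BST2, DDX60L, ISG20, GBP2, GBP5 and APOL2, and of the uncalled GBP3, lie to the right of their NC values.

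Levels per gene length, read from the authors' FPKM, were led in both groups by the same pair of small proteins. BST2, which encodes tetherin, a membrane anchor that holds budding virions at the cell surface, stood at 290.7 ± 6.90 FPKM with melittin and 253.1 ± 1.75 FPKM in NC (SD, n = 3 each). IFI6, a small membrane protein with anti-apoptotic activity, stood at 127.7 ± 10.3 FPKM with melittin and 196.0 ± 5.29 FPKM in NC. Both together made up 59.7 to 59.9% of the summed FPKM of the 48 genes with melittin and 43.1 to 43.3% in NC. After them came ADAR, PLSCR1 and APOL2 with melittin (34.3, 26.3 and 18.5 FPKM), and IFI16, ADAR and PLSCR1 in NC (49.2, 46.3 and 43.1 FPKM, each with an SD below 1). Means of at least 10 FPKM were reached by 13 of the 48 genes with melittin and 22 in NC, and of at least 1 FPKM by 37 with melittin and 44 in NC. The FPKM are scaled by library totals, and under that scaling the median log2 fold change of all tested genes was −0.24. MX1 was the lowest in both groups, at 0.0281 FPKM with melittin and 0.0512 FPKM in NC. Across the 48 genes the log2 fold change followed neither the NC level (Spearman rho −0.11 with FPKM) nor gene length (rho 0.03), although over all 12029 tested genes shorter genes were somewhat higher with melittin (rho −0.18); genes of one set of libraries are not independent, and these are descriptions.

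**Figure D2:**
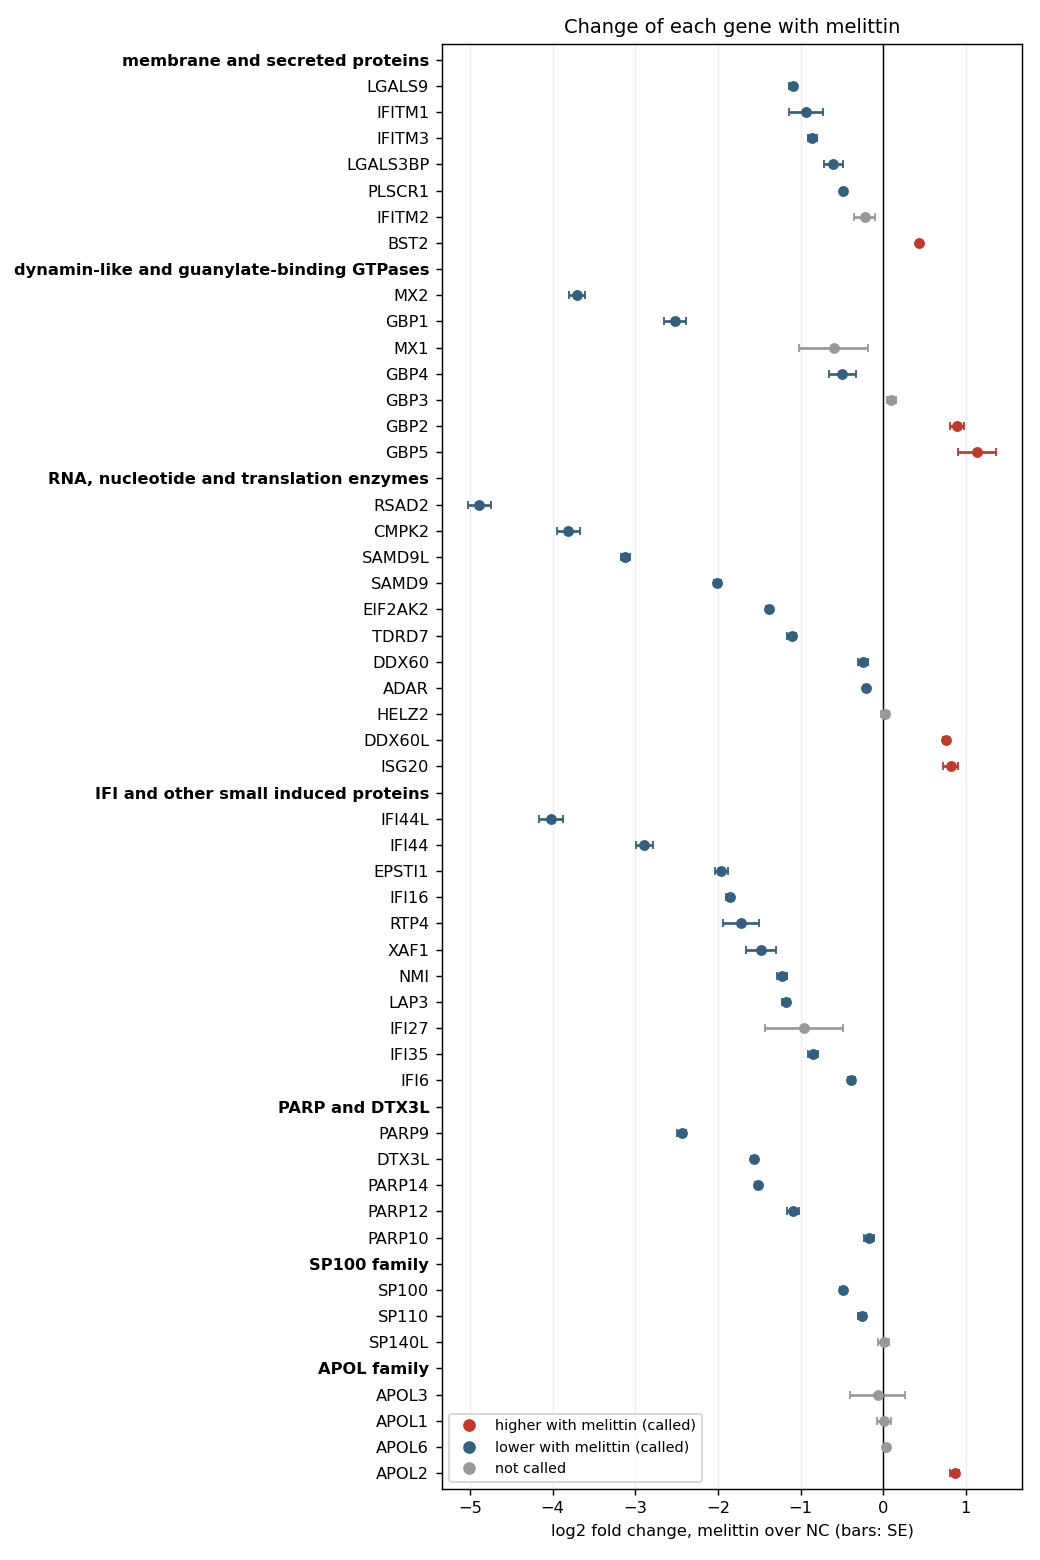
Log2 fold change of melittin over NC for each of the 48 genes (points) with its SE (bars), grouped by role; red is called higher, blue called lower and grey not called at an adjusted p of 0.05. The values run from −4.88 for RSAD2 to 1.14 for GBP5, and all 5 genes of the PARP and DTX3L group lie below 0.

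Among enzymes that act on RNA, nucleotides and translation, 8 of 11 fell, 2 rose and 1 was not called (median log2 fold change −1.11). The shares over all tested genes were 38.3% lower and 38.1% higher. RSAD2 encodes viperin, a radical-SAM enzyme that converts CTP into a chain-terminating nucleotide. It had 13, 18 and 14 counts in melittin libraries 1 to 3, and 557, 599 and 476 counts in NC libraries 1 to 3, or 0.929 ± 0.0787 CPM with melittin and 27.7 ± 0.438 CPM in NC (SD, n = 3). Its log2 fold change of −4.88 (SE 0.137, adjusted p = 4.83e-22) was a 29.5-fold fall, the 11th largest of the 12029 tested genes and the largest of the 48. CMPK2, the mitochondrial nucleotide kinase whose gene lies head to head with RSAD2, had 1.24, 1.61 and 1.54 CPM with melittin and 21.1, 21.2 and 19.6 CPM in NC, a 14.0-fold fall (log2 fold change −3.81, SE 0.137, adjusted p = 1.61e-19). For both genes every melittin library lay far below every NC library.

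SAMD9L and SAMD9, neighbouring genes for cytosolic proteins that restrict poxviruses and repress translation, fell to different extents. SAMD9L had 11.7, 12.5 and 11.0 CPM with melittin and 100.2, 103.7 and 102.5 CPM in NC (8.68-fold lower), and SAMD9 had 53.5, 48.7 and 49.4 CPM with melittin and 193.7, 207.4 and 207.0 CPM in NC (4.02-fold lower). Here too the groups stood far apart. EIF2AK2, which encodes PKR, the double-stranded RNA-activated kinase that stops translation, averaged 79.4 ± 1.82 CPM with melittin and 207.1 ± 4.75 CPM in NC (log2 fold change −1.38). TDRD7, a Tudor-domain protein, fell by 1.11 on the log2 scale.

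Smaller falls were seen in ADAR, the adenosine deaminase that edits double-stranded RNA, and in the helicase DDX60. ADAR averaged 454.7 ± 5.78 CPM with melittin and 523.6 ± 6.43 CPM in NC (log2 fold change −0.20), and DDX60 29.5 ± 0.910 CPM with melittin and 35.0 ± 1.40 CPM in NC (−0.24). Their groups did not overlap, but neither passed the test against a 1.5-fold change, and both calls ended once the gene-length trend was taken out (ADAR at −0.031, adjusted p = 0.246; DDX60 at −0.023, adjusted p = 0.744). HELZ2, a helicase and transcriptional co-activator, had 54.4, 51.3 and 52.3 CPM with melittin and 50.0, 54.0 and 51.7 CPM in NC and was not called (log2 fold change 0.020, adjusted p = 0.733). It was called lower with library totals alone (−0.21) and on the FPKM scale, and higher with the length trend removed (0.19).

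ISG20 and DDX60L went the other way. ISG20, an exonuclease that degrades viral RNA, had 21.7, 21.3 and 21.6 CPM with melittin and 12.7, 12.6 and 11.3 CPM in NC, a rise by 0.81 on the log2 scale (SE 0.085, adjusted p = 1.73e-09). DDX60L, the paralogue of DDX60, had 179.8, 173.3 and 183.1 CPM with melittin and 102.3, 109.3 and 104.5 CPM in NC, a rise by 0.76 (SE 0.0342, adjusted p = 2.47e-17). In both genes every melittin library was above every NC library, and both passed the test against 1.5-fold. DDX60L shares 40735 bases with PALLD on the opposite strand; PALLD, which encodes the actin-binding protein palladin, had 2439 counts over the melittin libraries and 224 over the NC libraries, beside 8610 and 6209 counts of DDX60L. Its part in the DDX60L value was not tested.

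Of the IFI genes and other small induced proteins 10 of 11 fell and IFI27 was not called (median −1.48). Falls were called in 38.3% of all tested genes. IFI44L and IFI44, neighbouring genes for cytoplasmic proteins with GTP-binding motifs, had the largest falls. IFI44L had 22, 29 and 15 counts in melittin libraries and 412, 489 and 403 counts in NC libraries, a 16.2-fold fall (log2 fold change −4.01, SE 0.145, adjusted p = 1.77e-19). IFI44 had 3.71, 3.67 and 4.36 CPM with melittin and 29.7, 28.3 and 29.0 CPM in NC, a 7.43-fold fall (SE of the log2 value 0.102). EPSTI1, an interferon-response protein of macrophages and epithelia, had 10.6, 10.5 and 11.1 CPM with melittin and 44.3, 41.3 and 39.1 CPM in NC, a 3.88-fold fall. These 3 genes were lower in each melittin library than in any NC library.

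IFI16, a nuclear sensor of DNA, averaged 66.1 ± 4.51 CPM with melittin and 240.3 ± 4.18 CPM in NC (log2 fold change −1.86, adjusted p = 4.6e-25). RTP4, a receptor transporter protein, and XAF1, an antagonist of the apoptosis inhibitor XIAP, had log2 fold changes of −1.72 and −1.48. The interacting pair NMI and IFI35 had values of −1.23 and −0.85, and LAP3, a cytosolic leucine aminopeptidase, fell by 1.18. IFI6, the most abundant of the group per length, had 140.3, 128.0 and 120.4 CPM with melittin and 165.3, 174.3 and 168.6 CPM in NC, a fall by 0.39 that missed the test against 1.5-fold. IFI27, a mitochondrial protein, had 9, 7 and 2 counts with melittin and 11, 17 and 15 counts in NC. The counts themselves did not overlap, but after scaling melittin library 1 (0.585 CPM) was above NC library 1 (0.541 CPM), and IFI27 was not called (log2 fold change −0.96, SE 0.473, adjusted p = 0.0674). A call of IFI27 depended on the setting: it was made with limma-voom (adjusted p = 0.0421), with library totals alone (adjusted p = 0.0237), on the FPKM scale, without melittin replicate 1 (−1.40, adjusted p = 0.024) and without NC replicate 1 (−1.14, adjusted p = 0.0463).

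All 5 genes of the ADP-ribosyltransferase group fell (median −1.52), where 38.3% of all tested genes did. PARP9 and the ubiquitin ligase DTX3L form a complex that modifies histones and viral proteins. PARP9 had 21.3, 22.4 and 18.5 CPM with melittin and 112.5, 111.8 and 113.1 CPM in NC, a 5.41-fold fall (log2 fold change −2.43, SE 0.0541, adjusted p = 2.77e-24). DTX3L had 63.5, 60.1 and 62.1 CPM with melittin and 177.6, 184.9 and 184.4 CPM in NC, a 2.95-fold fall. PARP14, a mono-ADP-ribosyltransferase of macrophages, had 70.3, 64.5 and 66.8 CPM with melittin and 196.1, 190.4 and 189.4 CPM in NC, a 2.86-fold fall. In these 3 genes the groups were far apart and the replicates close together. PARP12, which is recruited to stress granules, fell by 1.09. PARP10, which also transfers single ADP-ribose units, fell by 0.17 on the log2 scale (adjusted p = 0.0201), a call that ended with DESeq2 (adjusted p = 0.0616), without melittin replicate 2 (adjusted p = 0.101), without NC replicate 1 (adjusted p = 0.0678) and against 1.5-fold. It overlaps GRINA, a gene with 10561 counts over the melittin libraries and 10446 over the NC libraries, by 3360 bases on the opposite strand, and the part of such reads in the PARP10 value was not tested.

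The GTPases went in both directions, as did all tested genes (38.3% fell and 38.1% rose). Of the 7 GTPases 3 fell, 2 rose and 2 were not called. MX2, a dynamin-like GTPase that blocks nuclear entry of HIV-1, had 53, 67 and 42 counts with melittin and 937, 890 and 753 counts in NC, a 13.0-fold fall (log2 fold change −3.71, SE 0.0992, adjusted p = 1.82e-22). Its relative MX1, which traps viral nucleoproteins, was close to 0, with 4, 14 and 9 counts with melittin and 22, 14 and 14 counts in NC, and was not called (−0.60, SE 0.416, adjusted p = 0.191).

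Guanylate-binding proteins assemble on pathogen vacuoles and on bacteria. GBP1 had 2.60, 2.73 and 4.49 CPM with melittin and 18.7, 19.3 and 17.7 CPM in NC, a 5.73-fold fall (log2 fold change −2.52, adjusted p = 1.8e-15), and all 3 melittin libraries were below all 3 NC libraries. GBP4 fell by 0.49 (adjusted p = 0.00844), a call that ended without melittin replicate 3 (−0.37, adjusted p = 0.0566) and against 1.5-fold. GBP5 had 42, 66 and 60 counts with melittin and 39, 29 and 25 counts in NC, a rise by 1.14 on the log2 scale of CPM (SE 0.229, adjusted p = 6.85e-05), and GBP2 had 20.4, 22.1 and 22.8 CPM with melittin and 12.6, 11.0 and 11.5 CPM in NC, a rise by 0.89 (SE 0.0883, adjusted p = 5.91e-10). After scaling, every melittin library was above every NC library for GBP2 and GBP5. GBP3 had 47.2, 47.9 and 46.8 CPM with melittin and 43.2, 44.8 and 44.6 CPM in NC. Its groups did not overlap, but it was not called (log2 fold change 0.099, adjusted p = 0.0833), and it was called lower with library totals alone (−0.13, adjusted p = 0.0218) and on the FPKM scale. Per length, GBP1 and GBP2 stood in opposite order in the groups: GBP1 at 0.495 ± 0.159 and GBP2 at 2.78 ± 0.152 FPKM with melittin, and GBP1 at 3.29 ± 0.149 and GBP2 at 1.75 ± 0.122 FPKM in NC (SD, n = 3). GBP genes are similar in sequence, so the authors' counting may have divided reads between them.

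Of the membrane and secreted proteins 5 of 7 fell, 1 rose and 1 was not called (median −0.61). The shares over all tested genes were 38.3% lower and 38.1% higher. LGALS9, the lectin galectin-9, had 49.2, 45.1 and 45.6 CPM with melittin and 100.0, 103.6 and 95.2 CPM in NC, a 2.14-fold fall (log2 fold change −1.10, SE 0.0468, adjusted p = 7.3e-18). The IFITM proteins sit in plasma and endosomal membranes and block fusion of enveloped viruses. IFITM3 had 31.7, 33.2 and 35.9 CPM with melittin and 60.2, 61.6 and 60.7 CPM in NC (log2 fold change −0.86, adjusted p = 5.14e-14), and IFITM1 had 29, 39 and 36 counts with melittin and 96, 92 and 55 counts in NC (−0.93, SE 0.205, adjusted p = 0.000208). In both, the melittin libraries were below the NC libraries, and IFITM1 missed the test against 1.5-fold (adjusted p = 0.0526). IFITM2 had 12.2, 7.68 and 9.72 CPM with melittin and 11.1, 12.6 and 10.5 CPM in NC, with overlapping groups (−0.22, adjusted p = 0.116). It was called lower with library totals alone, on the FPKM scale, with the length trend removed, and without melittin replicate 1 (−0.41, adjusted p = 0.00418). The 3 IFITM genes are close copies of each other, and reads may have been divided between them.

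LGALS3BP, a secreted glycoprotein that binds galectins, and PLSCR1, the phospholipid scramblase that hinders virus entry, had log2 fold changes of −0.61 and −0.48, both called, and missed the test against 1.5-fold. BST2 had 340.5, 343.5 and 356.9 CPM with melittin and 258.8, 257.7 and 255.8 CPM in NC, a rise by 0.43 (SE 0.0267, adjusted p = 3.31e-14), and every melittin library was above every NC library, but it missed the test against 1.5-fold. BST2 is a short gene (1101 bases in the table), and once the gene-length trend was taken out its value was −0.062 (adjusted p = 0.0374).

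In the SP100 family, chromatin readers of nuclear bodies, 2 of 3 genes fell by little and SP140L was not called. A fall was called for 38.3% of all tested genes. SP100 had 161.6, 165.0 and 156.3 CPM with melittin and 226.7, 223.5 and 228.7 CPM in NC (log2 fold change −0.49, SE 0.0298, adjusted p = 2.14e-14). SP110 had 58.5, 60.3 and 64.8 CPM with melittin and 70.2, 76.3 and 73.2 CPM in NC (−0.26, adjusted p = 2.01e-05). Both had groups that did not overlap, and both missed the test against 1.5-fold. SP140L had 30.4, 33.1 and 34.1 CPM with melittin and 29.6, 35.0 and 32.5 CPM in NC (0.0064, adjusted p = 0.936), and it was called lower with library totals alone (−0.22) and on the FPKM scale.

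In the APOL family, relatives of the trypanosome-killing lipid-binding protein APOL1, 1 of 4 genes rose and 3 were not called. With library totals alone 2 were called lower. A rise was called for 38.1% of all tested genes in the main fit. APOL2 had 65.8, 69.9 and 69.6 CPM with melittin and 37.4, 39.4 and 36.0 CPM in NC, a rise by 0.86 (SE 0.0513, adjusted p = 1.29e-14) with groups that did not overlap. APOL6 had 131.4, 134.8 and 137.1 CPM with melittin and 135.6, 128.1 and 129.5 CPM in NC (log2 fold change 0.037, SE 0.0337, adjusted p = 0.324), and APOL1 had 21.7, 21.5 and 19.6 CPM with melittin and 18.3, 22.1 and 22.2 CPM in NC (0.0073, SE 0.0843, adjusted p = 0.941). In both, the groups overlapped. APOL6 and APOL1 were the genes called lower with library totals alone, at −0.19 and −0.22, where the median of all genes was −0.24, and both were called lower on the FPKM scale. With the length trend removed APOL6 was called higher (0.17, adjusted p = 6.43e-05). APOL3 had 20, 21 and 21 counts with melittin and 19, 45 and 16 counts in NC and was not called (−0.069, adjusted p = 0.857); without NC replicate 2 its log2 fold change was 0.47 (adjusted p = 0.251).

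Of the 48 genes, 27 lie in 10 runs of neighbours with gaps below 200000 bases, and the runs differed in how alike their genes moved. Coordinates are those of the deposited table on GRCh38. CMPK2 (chromosome 2, 6840570 to 6866635, minus strand) and RSAD2 (6865557 to 6898239, plus strand) overlap at their starts by 1079 bases, and their log2 fold changes were −3.81 and −4.88. PARP9 (chromosome 3, 122527924 to 122564577, minus strand) and DTX3L (122564338 to 122575203, plus strand) overlap by 240 bases, with values of −2.43 and −1.56, and PARP14 (122680839 to 122730840), farther along the same chromosome, fell by 1.52. IFI44L and IFI44 on chromosome 1 (78619902 to 78664078 together) stood at −4.01 and −2.89, and SAMD9 and SAMD9L on chromosome 7 (93099513 to 93148385) at −2.01 and −3.12. In these 4 runs all genes fell. The authors' strand setting is not given in the sources used here, so reads in the shared bases of RSAD2 and CMPK2, or of PARP9 and DTX3L, cannot be assigned with certainty.

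Other runs were split. Along the GBP run on chromosome 1 (89006679 to 89272860) the order GBP3, GBP1, GBP2, GBP4, GBP5 gave log2 fold changes of 0.099, −2.52, 0.89, −0.49 and 1.14. DDX60 and DDX60L on chromosome 4 (168216291 to 168537786) stood at −0.24 and 0.76, and APOL3, APOL2 and APOL1 on chromosome 22 (36140329 to 36267530) at −0.069, 0.86 and 0.0073. On chromosome 21, MX2 (41361999 to 41409393) fell by 3.71 beside the uncalled MX1 (41420020 to 41470071). MX1 overlaps TMPRSS2, which was at 0. Of the 48 genes 4 overlap another gene on the same strand, and these others held at most 1 count each; 10 more overlap a gene on the opposite strand only.

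**Figure D3:**
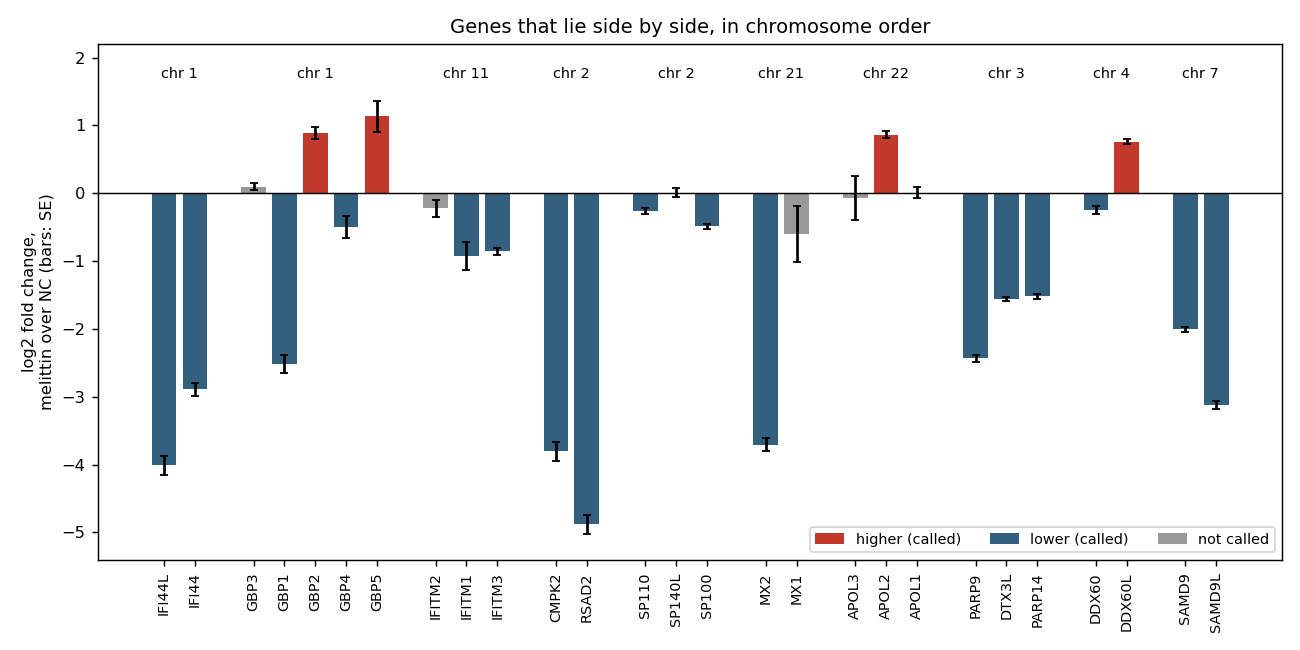
Log2 fold change of melittin over NC (bars from 0, with SE) for the 27 genes that lie in 10 runs of neighbours, in chromosome order within each run; red is called higher, blue called lower and grey not called. The pairs IFI44L and IFI44, CMPK2 and RSAD2, and SAMD9 and SAMD9L lie below 0 together, while the GBP run alternates between −2.52 and 1.14.

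Other genes of the interferon pathway were set beside the 48. Over all 12029 tested genes 38.3% fell, 38.1% rose and 2.15% fell at least 4-fold. All 8 OAS and IFIT genes, interferon-induced sensors and binders of RNA, fell at least 4-fold, led by OAS3, OAS2 and IFIT3 in adjusted p (log2 fold changes −2.74, −2.61 and −2.97; list median −2.85). In the ISG15 conjugation list 3 of 5 fell, namely HERC6, HERC5 and ISG15 (log2 fold changes −3.75, −1.89 and −1.37), while the activating enzyme UBA7 rose by 0.34 and UBE2L6 was not called (−0.018). With library totals alone no gene of this list was called higher. Only USP18, the protease that removes ISG15 and dampens the type I receptor, fell among 9 negative regulators (by 1.44); 5 rose, among them SOCS3 (2.71) and PTPN6 (0.39), and with library totals alone 3 rose and 4 fell.

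The factors upstream of these genes moved in both directions, as did all tested genes (38.1% rose and 38.3% fell). Of 13 JAK, STAT and IRF genes 7 rose and 4 fell (6 and 4 with library totals alone; the list median was 0.19, and −0.037 under that scaling). IRF8, a myeloid interferon-regulatory factor, had 92.4 ± 2.51 CPM with melittin and 12.2 ± 1.14 CPM in NC (SD, n = 3; log2 fold change 2.92, SE 0.0616), and the kinase JAK1 rose by 0.72. IRF9 was low and was not called (−0.19, adjusted p = 0.535). Of the receptor chains, IFNAR1, IFNGR2 and IFNGR1 fell (log2 fold changes −0.39, −0.24 and −0.17), and IFNAR2 rose by 1.58. IFNAR2 was low in both groups, at 0.637 FPKM with melittin and 0.250 FPKM in NC. IFNAR1 stood at 14.5 FPKM with melittin and 22.2 FPKM in NC. Transcripts of interferons themselves were almost absent at this depth: IFNB1 had 1 count over the melittin libraries and 3 over the NC libraries, IFNK had 3 with melittin and 0 in NC, and IFNA1, IFNA2, IFNE, IFNG, IFNL1, IFNL2 and IFNL3 were at 0 throughout, where a count of 0 in a library allows up to 0.201 CPM with melittin and 0.173 CPM in NC (3 counts; counting error only).

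**Figure D4:**
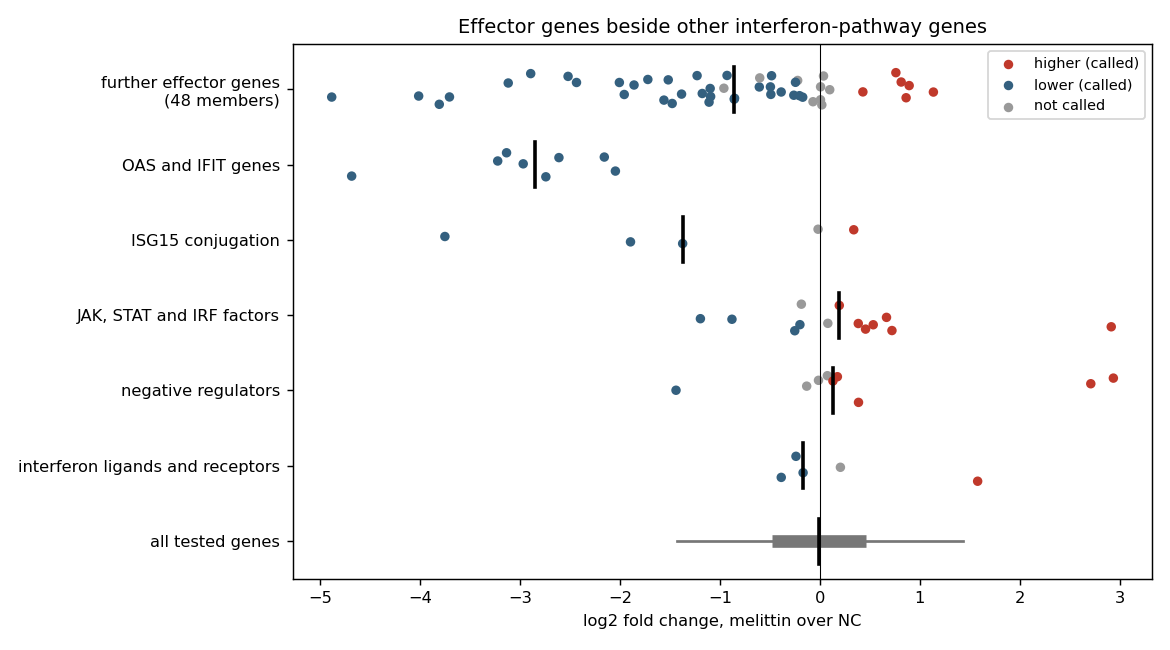
Log2 fold change of melittin over NC for the 48 genes and for the tested genes of 5 other interferon-pathway lists (points; red called higher, blue called lower, grey not called; black bar, median), with all 12029 tested genes as a thick bar from the 25th to the 75th percentile and a thin line from the 5th to the 95th. The 8 OAS and IFIT genes lie between −4.68 and −2.05, while the 48 genes run from −4.88 to 1.14.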

How the data were processed

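RNA-seq of 3 melittin and 3 NC samples was analysed. Per the labels' protocols, RNA came from a chloroform extraction of total RNA and a NEBNext Ultra II RNA kit gave the libraries. Per the submitters' processing notes the build was GRCh38; an aligner, a counter or a strand setting was not given in the sources used here. Deposited by the authors were raw read counts per gene, and FPKM, which equal the counts divided by gene length and library total (relative deviation at most 2.23e-09 over values of at least 20 counts). The FPKM thus carry the scaling by library totals.

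Counts were fitted with edgeR 4.0.16 in R 4.3.3 (filterByExpr, TMM, glmQLFit and glmQLFTest, two-sided, Benjamini-Hochberg over 12029 genes, threshold 0.05). All 48 genes passed the filter. CPM use TMM-scaled library sizes, and 1 count was 0.0471 to 0.067 CPM. The SE is the absolute log2 fold change over the root of the F statistic. Alternatives used DESeq2 1.42.0, limma 3.58.1 (voom, and log2(FPKM + 1) or log2(FPKM + 0.1)), other scalings and filters, a test against 1.5-fold, a replicate block and leaving out each library with the tested genes kept. The smooth trend on gene length was removed as an offset. The code was tested on simulated data.

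The members and lists were chosen with earlier results of these data known. Values in every library are given for up to 3 genes per role group with the largest change, for those that rose and for those not called; some others were added after their values were seen. Replicates differed by more than sampling noise (chi-square per degree of freedom 1.73 to 1.76 in NC, 2.23 to 3.92 with melittin), so each library counts as 1. The labels name no separate cultures and no batch, so the p-values cover only the spread among these samples, which may be technical. A few genes of the marker and pathway lists are not reported here.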

Additional observations from a re-analysis of the deposited data

How the results depend on the processing

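Of 814 values of single genes under 17 alternatives, 754 kept direction and side of the threshold, 17 lost the call, 13 gained one and 30 changed sign. The count of genes that fell (33) ranged from 32 to 35 with a library left out and was 23 against 1.5-fold (5 higher). Against 1.5-fold 58.3% of the 48 genes and 29.1% of all tested genes were called in either direction. The median log2 fold change (−0.85) was −1.09 with library totals alone, −0.68 on log2(FPKM + 1), −0.95 on log2(FPKM + 0.1), −1.03 with the length trend removed, and −0.91 to −0.73 with a library left out. Of 40 other interferon-pathway genes tested, 14 rose and 19 fell, 6 and 14 against 1.5-fold, and 10 and 23 with library totals alone. In the main fit 38.1% of all tested genes rose and 38.3% fell. Of all called genes 49.8% were higher in the main fit, 50.4% against 1.5-fold and 33.6% with library totals alone.

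The genes that changed sign were near 0, except BST2 (−0.062 with the length trend removed). With library totals alone GBP3 was at −0.13, HELZ2 at −0.21, SP140L and APOL1 at −0.22 and APOL6 at −0.19, all called lower. On log2(FPKM + 1) they were at −0.12, −0.17, −0.19, −0.19 and −0.18, and on log2(FPKM + 0.1) at −0.13, −0.20, −0.22, −0.22 and −0.19, again all called lower. With no filter SP140L and APOL1 were at −0.012 and −0.011, with the length trend removed APOL1 was at −0.12, and with limma-voom APOL3 was at 0.042. With a library left out HELZ2 ranged from −0.0079 to 0.050, SP140L from −0.055 to 0.070, APOL1 from −0.081 to 0.055 and APOL3 from −0.28 to 0.47. The cause was not tested. The same-numbered libraries did not deviate together (correlations −0.05, 0.01 and −0.02), and a fit with the replicate number as a block gave 33 lower and 6 higher, a median of −0.86, and 19 lower and 14 higher pathway genes. MX1, IFI27 and APOL3 rest on few counts and had SEs of 0.416, 0.473 and 0.329.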
